A study of Mus musculus with 2 samples.

Results

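Apoe, Apoc1, Apoc4, Apod, Abca1, Abcg1, Lpl, Soat1, Plin2 and Ch25h are genes of lipoprotein lipid transport, cholesterol efflux and lipid storage. They were taken by symbol from the gene list of a spatial transcriptomic measurement of the injured mouse brain, 10 genes of 19070, and all 10 were found in both sections. The study used Visium HD, in which probes for each gene are captured on an array and counted as unique molecular identifiers (UMIs) per square bin, here with a side of 16 µm, on formalin-fixed, paraffin-embedded brain. The 2 sections came from male C57Bl6 mice, 3 months old and otherwise untreated, which received a controlled cortical impact (CCI), a piston strike on the exposed cortex under the right parietal bone. Tissue was taken 3 days after CCI in 1 mouse and 28 days after CCI in the other. No sham section was among these samples, so the reference was the opposite side of the same section, itself the brain of an injured animal. With 1 section per time point there was no replicate, no test between time points was possible, and age of the lesion, animal and section cannot be told apart.

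Apolipoproteins are the protein part of lipoprotein particles. In the brain Apoe, made mainly by astrocytes and also by microglia and macrophages that have taken up debris, carries cholesterol between cells. Abca1 and Abcg1 are membrane transporters that pass cholesterol out of the cell to such particles, and both are classical targets of the liver X receptors (LXRs), nuclear receptors for oxysterols. Lpl cleaves the triglycerides of lipoproteins, Soat1 esterifies cholesterol for storage, Plin2 coats the lipid droplets in which it is stored, and Ch25h makes 25-hydroxycholesterol, an oxysterol released by activated macrophages.

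Apoe, Apoc1 and Apoc4 are neighbours on mouse chromosome 7 (RefSeq annotation of GRCm38.p6). Apoe lies at chr7:19696244-19701310, Apoc1 at chr7:19689480-19692659 and Apoc4 at chr7:19678084-19681460, next to Apoc2 at chr7:19671579-19677941. A read-through gene model, Gm44805, spans Apoc4 and Apoc2 (chr7:19671579-19681460), so UMIs of these 2 genes may not be separable, and their values are uncertain to that extent. The other members lie apart, Abca1 at chr4:53030789-53159988 among them.

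Because Abca1 was the member whose levels ran most like those of Apoe at 28 days, the sequence before the RefSeq start whose window was at hand is shown. It is chr4:53159896-53160145 of GRCm38.p6, minus strand, written in the direction of transcription, with a match to an E-box and a match to a spaced direct repeat in capitals. That start lies inside the annotated span of the gene, so the 3′ end of the printed stretch, which holds the repeat match, lies within the gene as annotated.

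Abca1 upstream window: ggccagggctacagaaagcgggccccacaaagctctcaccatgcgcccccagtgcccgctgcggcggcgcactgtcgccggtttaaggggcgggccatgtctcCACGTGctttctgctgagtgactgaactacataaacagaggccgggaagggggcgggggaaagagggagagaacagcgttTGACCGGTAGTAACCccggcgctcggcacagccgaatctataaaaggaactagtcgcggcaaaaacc

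RefSeq windows from 250 bases before to 50 after a start were at hand for 7 of the 10 genes. Of 32851 such windows, 0.718% held GGTNANNNNNGGTNA on either strand, a relaxed form of the direct repeat with 4 bases in between that LXRs bind with their partner RXR. Among the members this match was seen in Abca1, starting 67 bases before that start. The stricter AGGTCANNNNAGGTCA was in 5 windows (0.0152%) and in no member. The E-box CACGTG was in 7.15% of windows, and in those of Abca1 and Plin2. These are letter matches, and the relaxed form was chosen after the windows were seen.

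The sections held 120615873 and 82422389 UMIs at 3 and 28 days. Bins with under 100 UMIs were left out, which kept 39116 injured-side and 80501 opposite-side bins at 3 days, and 49478 and 53838 at 28 days. The median UMIs per bin were 804 and 871, and 564 and 657. The injured side was captured less widely at 3 days, so the whole-side ratios were repeated in a strip of equal width on both sides of the border, 2.08 mm at 3 days and 2.86 mm at 28 days. Levels are given as CPM, the UMIs of a gene relative to all UMIs of the same area on a fixed scale. The neuron markers Snap25, Rbfox3 and Syt1 summed to between 3144 and 5161 CPM on all sides, as a check that the tissue is brain. The phagocyte list (Cd68, Lyz2, Ctsz, Lgals3, Cd52 and Laptm5) was 3.63-fold higher on the injured side at 3 days and 7.41-fold at 28 days, with all 6 genes past 2-fold each time. Gene levels are compared within a gene and not between genes, since how many probes target each gene is not given in the sources used here.

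At 3 days after CCI, Apod, Plin2 and Ch25h stood out on the injured side. By 28 days Apoe, Apoc1, Apoc4, Abca1, Lpl, Plin2 and Ch25h were all at least 2-fold higher there. A gene was counted as higher when its level was at least 2-fold that of the other area, with at least 50 UMIs over both. At 3 days 3 of the 9 members with enough UMIs were higher, against 9.14% of 14548 genes, and the members' median log2 ratio was 0.50 beside 0.12 over all genes. At 28 days 7 of 10 were higher, against 5.42% of 14231 genes, with medians of 1.56 and 0.03. No member was 2-fold lower at either time. Apoc4 at 28 days and Ch25h at both times reached 50 UMIs through the injured side, so that a difference was built into their passing and these counts are descriptions. In a bin, more cells of a type and more RNA per cell cannot be told apart.

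**Figure D1:**
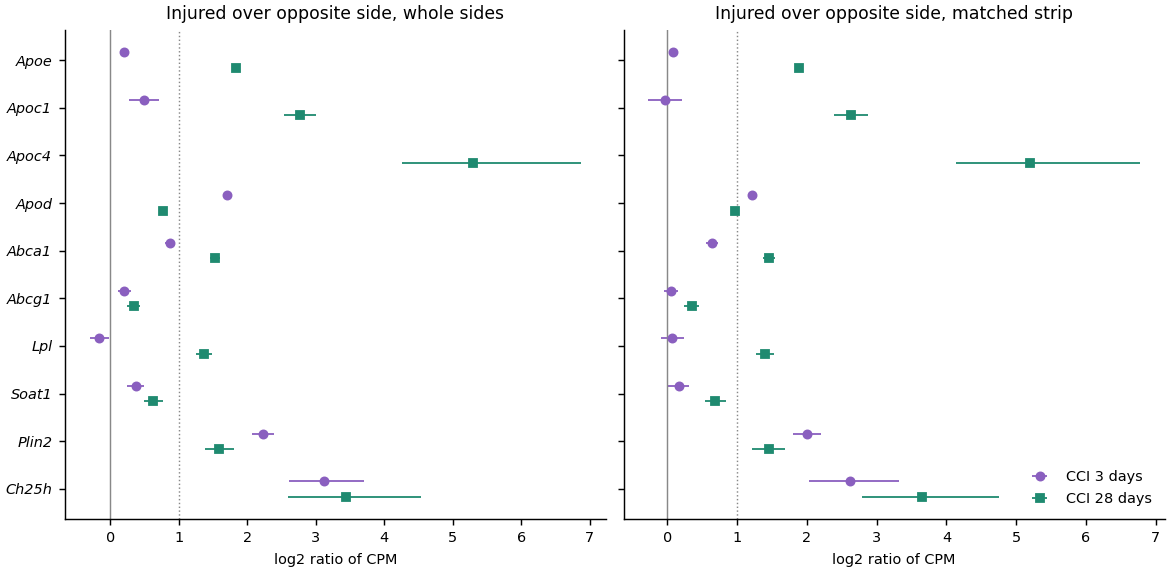
log2 ratio of CPM, injured over opposite side, for each member at 3 days (circles) and 28 days (squares), over whole sides (left) and within the strip of equal width (right). Bars are exact 95% intervals of counting error, and the dotted line marks 2-fold. Apoe, Apoc1 and Lpl lay between -0.16 and 0.50 at 3 days over whole sides and between 1.37 and 2.76 at 28 days, while Apod and Plin2 had the larger ratio at 3 days; Apoc4 is not plotted at 3 days, where it had 15 UMIs.

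The strip gave the same counts, 3 of 9 against 5.90% of 14248 genes at 3 days and 7 of 10 against 6.84% of 14068 genes at 28 days. The members' medians there were 0.16 and 1.46, beside 0.08 and 0.07 over all genes. The injured and opposite part of a strip still held unlike tissue. The striatal list was 2.65-fold higher and the thalamic list 0.421-fold on the injured part at 3 days, and the striatal list was 0.434-fold at 28 days. Of the genes past 2-fold in either direction in the strip at 28 days, 88.5% were higher on the injured side on the CPM scale and 58.4% as UMIs per bin, where the median of all genes shifted by -0.35.

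Apoe gave the most UMIs of the members, and so the narrowest intervals. At 3 days its injured-side level was 3415 CPM and its opposite-side level 2957 CPM, which gave a log2 ratio of 0.21 (95% interval of counting error 0.20 to 0.22). By 28 days these levels were 11315 and 3158 CPM, 3.58-fold apart, and the log2 ratio was 1.84 (1.83 to 1.85). The opposite-side levels of the 2 sections were thus close, and the injured side differed. With the TMM scaling of edgeR, the small 3-day ratio of the strip turned from 0.08 to -0.011.

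Apoc1, a small apolipoprotein of the same locus, was sparse at 3 days, with 7.27 CPM on the injured side and 5.15 CPM opposite. Its log2 ratio of 0.50 (0.27 to 0.72) over whole sides was -0.03 (-0.27 to 0.22) in the strip. The choroid plexus list was 4.99-fold on the injured side at 3 days (5 of 5 genes past 2-fold), and without tiles led by choroid plexus, ventricular wall or meningeal markers the Apoc1 ratio was 0.40 (0.15 to 0.63). At 28 days it had 28.0 and 4.12 CPM, 6.80-fold, with 1041 and 186 UMIs. Apoc4, another gene of the cluster, went from 7 and 8 UMIs at 3 days to 210 and 6 UMIs at 28 days, with a log2 ratio between 4.27 and 6.88 (estimate 5.30).

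Apod, a lipocalin that binds small lipids and is made by oligodendrocytes and fibroblasts, had the reverse order in time. At 3 days 1897 CPM were counted on the injured side and 583 CPM opposite, 3.26-fold apart (log2 ratio 1.70, 1.69 to 1.72). Levels of 872 and 513 CPM followed at 28 days (log2 ratio 0.76, 0.74 to 0.79). In the strip the ratios were closer to each other, 1.21 and 0.97. The myelin genes Mbp, Mobp and Mog together were 1.62-fold on the injured side at 3 days and 0.795-fold at 28 days over whole sides, and their part in the Apod values was not tested. The meningeal list was 2.36-fold and 1.89-fold, and without tiles led by meningeal, choroid plexus or ventricular wall markers the Apod ratios were 1.81 and 0.53.

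The efflux transporters differed from each other. Abca1, which loads cholesterol onto lipid-poor apolipoproteins, reached 73.1 CPM on the injured side against 39.9 CPM opposite at 3 days (log2 ratio 0.87, 0.80 to 0.94), and 133 against 46.0 CPM at 28 days (log2 ratio 1.53, 1.46 to 1.61). Abcg1, which exports cholesterol to larger particles, had 41.0 and 35.5 CPM at 3 days and 48.5 and 38.2 CPM at 28 days. Its log2 ratios of 0.21 (0.12 to 0.30) and 0.34 (0.25 to 0.44) were below those of Abca1 in the same section, with intervals apart.

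Over whole sides Lpl was the member whose sign differed between the sections. Its injured-side level was 15.04 CPM against 16.8 CPM opposite at 3 days (log2 ratio -0.16, -0.30 to -0.02), then 50.9 and 19.7 CPM at 28 days (log2 ratio 1.37, 1.26 to 1.49). Within the strip the 3-day ratio was 0.07 (-0.10 to 0.25), or -0.017 with TMM scaling, and the 28-day ratio 1.40. On the opposite side Lpl was highest in striatal and hippocampal tiles, given with the regions.

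Of the storage genes, Soat1 had 21.1 and 16.3 CPM at 3 days and 26.5 and 17.1 CPM at 28 days, with log2 ratios of 0.37 (0.24 to 0.50) and 0.63 (0.49 to 0.76), both under 2-fold. Plin2 was 4.70-fold higher on the injured side at 3 days (26.8 against 5.70 CPM) and 3.02-fold at 28 days (16.9 against 5.60 CPM). Its opposite-side levels were alike in the 2 sections, and its injured-side level was the larger at 3 days. Ch25h, the oxysterol enzyme, was rare throughout, with 148 UMIs on the injured side and 37 opposite at 3 days and 102 and 11 at 28 days. The corresponding log2 ratios were 3.13 (2.61 to 3.70) and 3.44 (2.60 to 4.54).

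**Figure D2:**
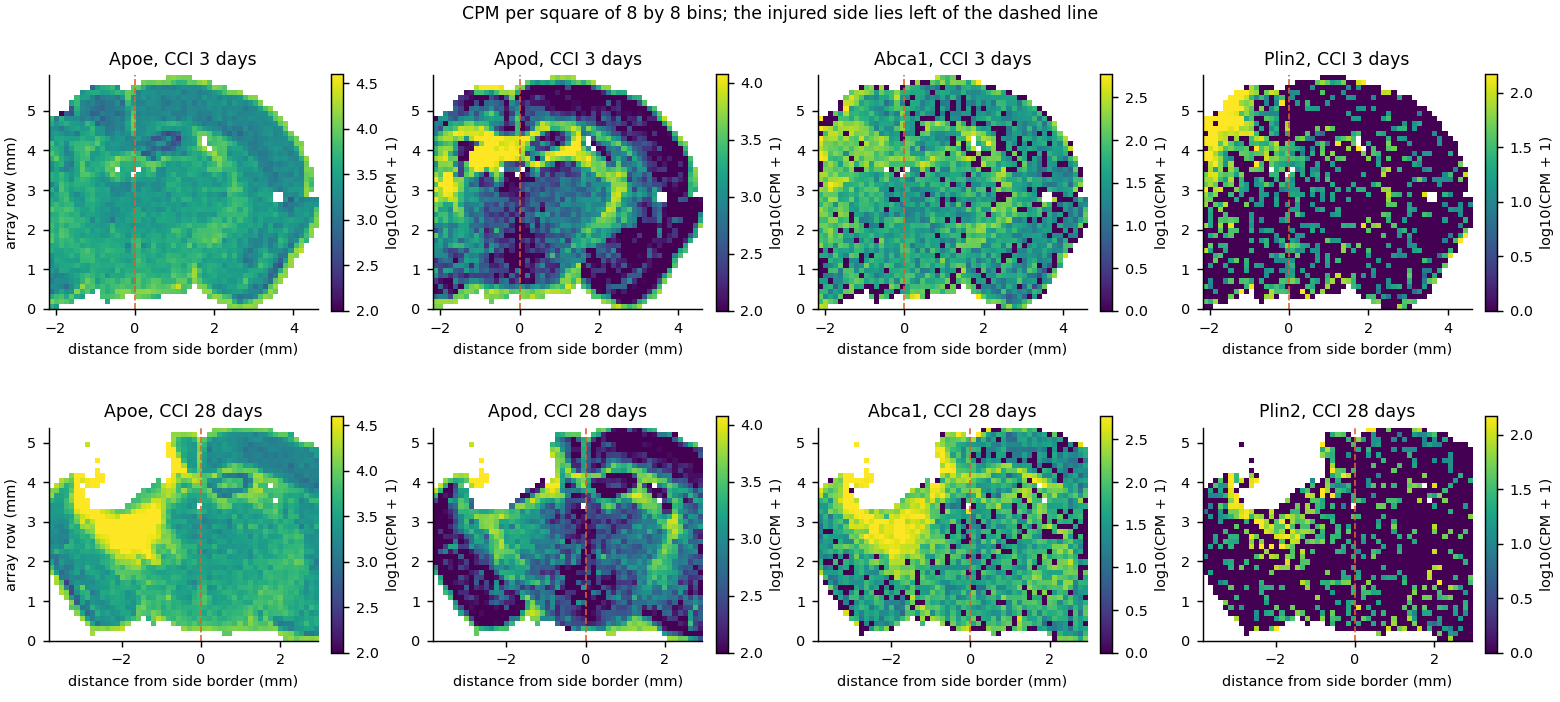
CPM of Apoe, Apod, Abca1 and Plin2 per square of 8 by 8 bins, coloured as log10(CPM + 1), at 3 days (top) and 28 days (bottom). The horizontal axis is the distance from the side border in mm with the injured side on the left, the vertical axis the array row in mm, and blank squares inside the outline hold no tissue. At 3 days Plin2 was brightest in the upper outer part of the injured side and Apod in a band that crossed the border; at 28 days Apoe, Abca1 and Plin2 were brightest in a patch below the blank area on the injured side.

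The members were also spread unevenly within a side. At 28 days Apoe was seen in 86.2% of bins, with up to 577 UMIs in a bin, and the 1033 bins richest in Apoe, 1% of all, held 22.3% of its UMIs and all lay on the injured side. At 3 days the richest bin held 97 Apoe UMIs, the top 1% of bins held 6.88% of its UMIs, and 35.8% of those bins were on the injured side. For Apod at 3 days 84.3% of the top bins were on the injured side.

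Anatomy was read from tiles of 4 by 4 bins (64 µm), each given the region whose marker list it carried most strongly, or none. On the opposite side the members had region patterns of their own. Apoe was highest in tiles led by meningeal and fibroblast markers (11694 CPM at 3 days and 10199 CPM at 28 days), then in the ventricular wall (9161 and 9712 CPM). At 28 days the intervals of the meninges and the ventricular wall overlapped. Next came the choroid plexus (6534 CPM) and white matter (5465 CPM) at 3 days, in the reverse order at 28 days (5627 and 7189 CPM), and Apoe was lowest in the deep cortical layers (1685 and 1888 CPM). Apod was highest in the meninges (6620 and 5117 CPM) and white matter (5836 and 3643 CPM) and lowest in the upper cortical layers (78.9 and 88.9 CPM). These patterns are the background against which the injured side is set.

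Abca1 had its highest opposite-side levels in the ventricular wall (189 and 206 CPM) and meninges (165 and 143 CPM), and the intervals of these 2 regions overlapped. Abcg1 was highest in white matter (87.2 and 94.7 CPM), above the striatum (49.4 and 53.3 CPM). Lpl was highest in the striatum (55.2 and 91.8 CPM) and the hippocampal pyramidal layer (54.5 and 61.1 CPM) and lowest in the thalamus (2.97 and 2.89 CPM). The thalamic intervals overlapped those of the hypothalamus. Apoc1 was highest in the choroid plexus (28.8 and 16.6 CPM), from 14 and 11 UMIs.

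**Figure D3:**
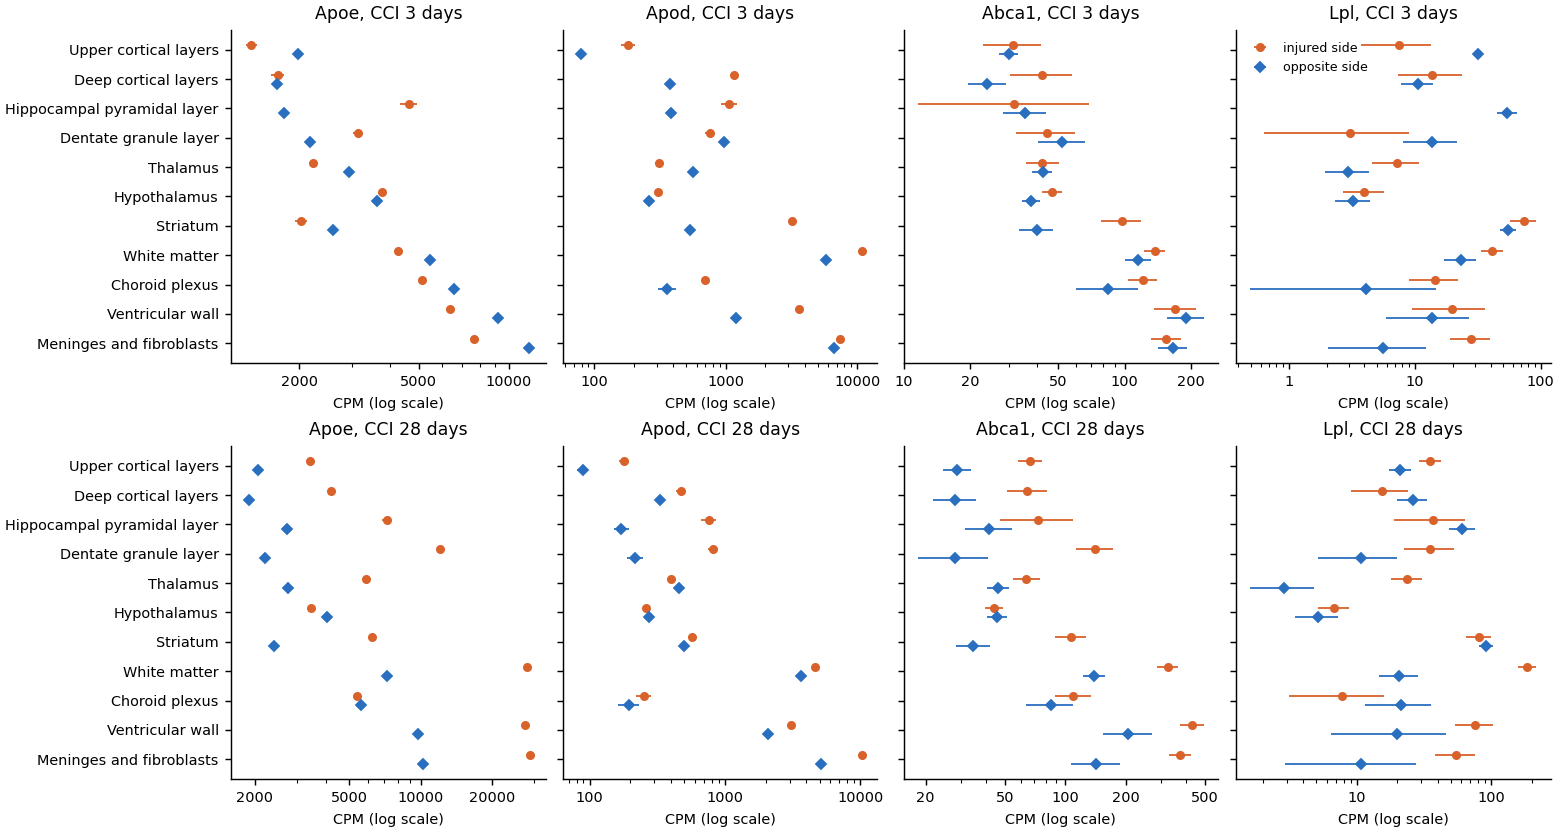
CPM of Apoe, Apod, Abca1 and Lpl per region on the injured (circles) and opposite side (diamonds) at 3 days (top) and 28 days (bottom), on log scales, with exact 95% intervals of counting error. At 3 days the injured-side Apoe level was the lower in 7 of 11 regions (4 of 11 as UMIs per bin); at 28 days it was the higher in 9 of 11 (10 of 11 as UMIs per bin).

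Region by region, Apoe was lower in CPM on the injured side in 7 of 11 regions at 3 days and higher in 3, taking a region as different when the 95% interval of its ratio left out 0. The lower ones included the meninges with a log2 ratio of -0.61 (-0.65 to -0.57), the ventricular wall with -0.53 and white matter with -0.36. The higher ones were the hippocampal pyramidal layer with 1.38, the dentate granule layer with 0.53 and the hypothalamus with 0.05. The depth of a region differed between the sides, and as UMIs per bin Apoe was lower in 4 regions and higher in 6 at 3 days, with white matter turning to 0.24, the thalamus from -0.39 to 0.11 and the striatum from -0.36 to 0.097. At 28 days Apoe was higher in 9 of 11 regions and at least 2-fold higher in 8, with the largest ratio of a named region, 2.45 (2.38 to 2.52), in the dentate granule layer, where it had 12078 CPM against 2204 CPM. The exceptions were the hypothalamus with -0.23 and the choroid plexus with -0.06 (-0.12 to 0.00), the latter turning to 0.23 as UMIs per bin, where 10 regions were higher and 6 at least 2-fold. Tiles given no region are outside these counts. They held 52953 of the 128298 injured-side Apoe UMIs at 3 days, with a log2 ratio of 0.19 (-0.061 as UMIs per bin), and 279565 of 420041 at 28 days, with a ratio of 2.52.

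Apod was higher on the injured side in 9 of 11 regions and lower in 2 at 3 days, the thalamus with -0.87 and the dentate granule layer with -0.35. The striatum had the largest ratio, 2.56 (2.48 to 2.65), from 3176 CPM against 538 CPM. At 28 days it was again higher in 9 regions, led by the hippocampal pyramidal layer with 2.14, and lower in the thalamus with -0.19. As UMIs per bin Apod was higher in 9 and 8 regions, and the striatum turned from 0.20 to -0.34 at 28 days. Abca1 was higher in 4 of 11 regions at 3 days, led by the striatum with 1.28 (0.88 to 1.67), and in 9 of 11 at 28 days, led by the dentate granule layer with 2.31 (1.69 to 3.02), and was lower in none (6 and 8 higher as UMIs per bin, and none lower).

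Plin2 was higher on the injured side in 5 of the 7 regions with at least 50 UMIs at 3 days, with a log2 ratio of 3.19 (2.33 to 4.14) in the deep cortical layers and 1.88 in the meninges. Its intervals included 0 in the thalamus and hypothalamus. In each of the 5 its opposite side had 32 UMIs or fewer, so that it reached 50 UMIs through the injured side and the count is a description. Lpl was lower on the injured side in 2 of 6 regions and higher in 1, white matter, at 3 days, and higher in 3 and lower in 0 of 7 at 28 days (3 higher and 3 lower as UMIs per bin). In the upper cortical layers at 3 days it had 11 injured-side UMIs against 411 opposite, -2.03 (-3.11 to -1.24). In the pyramidal layer it had 0 UMIs in 15 tiles against 123 UMIs in 113 tiles, with an interval that ended at -1.47. At 28 days its ratio was 3.00 (2.20 to 3.96) in the thalamus, from 61 and 15 UMIs, while the striatum had -0.18 (-0.54 to 0.15). Abcg1 was higher in 1 and lower in 1 of 8 regions at 3 days, and higher in 2 and lower in none of 9 at 28 days, and Soat1 was higher in 1 and lower in 1 of 8, and higher in 2 of 7. As UMIs per bin both genes were higher in 2 and lower in 0 regions at 3 days, while at 28 days Abcg1 was higher in 2 and lower in 1 and Soat1 higher in 1 and lower in 1. Other calls also had under 50 opposite-side UMIs and passed through the injured side. At 28 days these were Lpl in the thalamus, Abca1 in the dentate granule layer, Abcg1 in the ventricular wall and Soat1 in the meninges. At 3 days they were Lpl in white matter and Abca1 in the choroid plexus. Soat1 in the upper cortical layers at 28 days had 46 UMIs on each side. The lower calls of Lpl at 3 days, and that of Soat1 in the thalamus (39 against 170 UMIs), passed through the opposite side, where these genes were high. All these calls are descriptions.

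White matter, whose myelin is rich in cholesterol, was taken by itself. Of the members with enough UMIs in white matter tiles, 1 of 7 was at least 2-fold higher on the injured side at 3 days, against 2.82% of 10341 genes, and 5 of 8 at 28 days, against 3.21% of 8975 genes. The 3-day gene was Plin2, with 46.6 CPM against 13.6 CPM. The 28-day genes were Apoe, Apoc1, Abca1, Lpl and Plin2. Plin2 at 3 days (108 and 27 UMIs) and Apoc1 (52 and 14), Lpl (166 and 37) and Plin2 (34 and 22) at 28 days reached 50 UMIs through the injured side, so these counts are descriptions. Lpl had the largest estimate among them, 185.8 CPM against 20.6 CPM (log2 ratio 3.16, 2.65 to 3.73), after 41.4 and 23.2 CPM at 3 days.

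Apoe in injured-side white matter had 4269 CPM against 5465 CPM opposite at 3 days, and 28105 against 7189 CPM at 28 days. Apod had 10976 and 5836 CPM at 3 days and 4652 and 3643 CPM at 28 days. Abcg1 had log2 ratios below those of Abca1 here, -0.50 (-0.83 to -0.17) and -0.23 (-0.65 to 0.17). At 3 days white matter tiles held 402 UMIs per bin on the injured side and 266 opposite, and as UMIs per bin the median of all genes shifted by 0.60, Apoe turned to 0.24 and Abcg1 to 0.096, and 3 members (Apod, Lpl and Plin2) passed 2-fold. A stricter region score left 0 members at 3 days and 1 at 28 days past 2-fold.

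Tiles were next sorted by Gfap, the filament protein of reactive astrocytes, and Cd68, a lysosomal protein of phagocytes. A tile was high in a marker when it exceeded the 95th percentile of the opposite side, 3481 CPM of Gfap and 104 CPM of Cd68 at 3 days and 2388 and 87.9 CPM at 28 days. Cd68 was sparse. The 289 injured-side tiles high in Cd68 only held 677 of its UMIs at 3 days, and 197 such tiles held 347 at 28 days. In a shallow tile a lone Cd68 UMI could pass the cut, so depth entered the Cd68 classes. On the injured side 169 of 2539 tiles (6.66%) were high in both at 3 days and 548 of 3212 (17.1%) at 28 days. Opposite, 75 of 5150 (1.46%) and 28 of 3468 (0.807%) were. Since the cuts came from the opposite side, its shares were capped by the rule, and the cuts differed between the sections. Of the tiles high in both, 54 and 93 were white matter tiles, and 94 and 371 were given no region. On the injured side white matter was 32.0% of the tiles high in both and 6.96% of those high in neither at 3 days. At 28 days it was 17.0% and 3.61%. The hypothalamus was 0% and 22.7% at 3 days, and 0% and 28.4% at 28 days. The part of anatomy in the ratios between these classes was not tested.

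At 3 days every member with enough UMIs except Apoc1 had a higher CPM where both markers were high than where neither was, and at 28 days all 10 had. At 3 days 5 of 9 (Apod, Abca1, Lpl, Plin2 and Ch25h) were at least 2-fold higher, against 16.3% of 13456 genes, with a median log2 ratio of 1.92 beside 0.01 over all genes. At 28 days all 10 passed 2-fold, against 16.7% of 13455 genes, with 3.69 beside -0.09. Apoc4 at 28 days (182 against 6 UMIs) and Ch25h at 3 days (39 against 41) and 28 days (63 against 13) reached 50 UMIs through the tiles high in both, so these counts are descriptions. The depth differed between the classes, 596 UMIs per bin in the tiles high in both against 1102 in the others at 3 days, and 534 against 868 at 28 days. Scored as UMIs per bin, the median of all genes shifted by -0.89 and -0.70, and of the genes past 2-fold the share that was higher went from 55.0% to 11.5% at 3 days and from 51.0% to 19.1% at 28 days. The ratios below are therefore on the CPM scale. Opposite-side tiles high in both were also above those high in neither, so the 3-day pattern was not confined to the injured side. At 3 days Apod had 6066 against 442 CPM there, Abca1 142 against 36.7, Lpl 34.6 against 16.3 and Plin2 28.5 against 5.20. Apoe had 5312.5 against 2789.5 CPM there, and Ch25h had 1 UMI with both high. At 28 days Apoe had 13904 against 2931.5 CPM there.

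**Figure D4:**
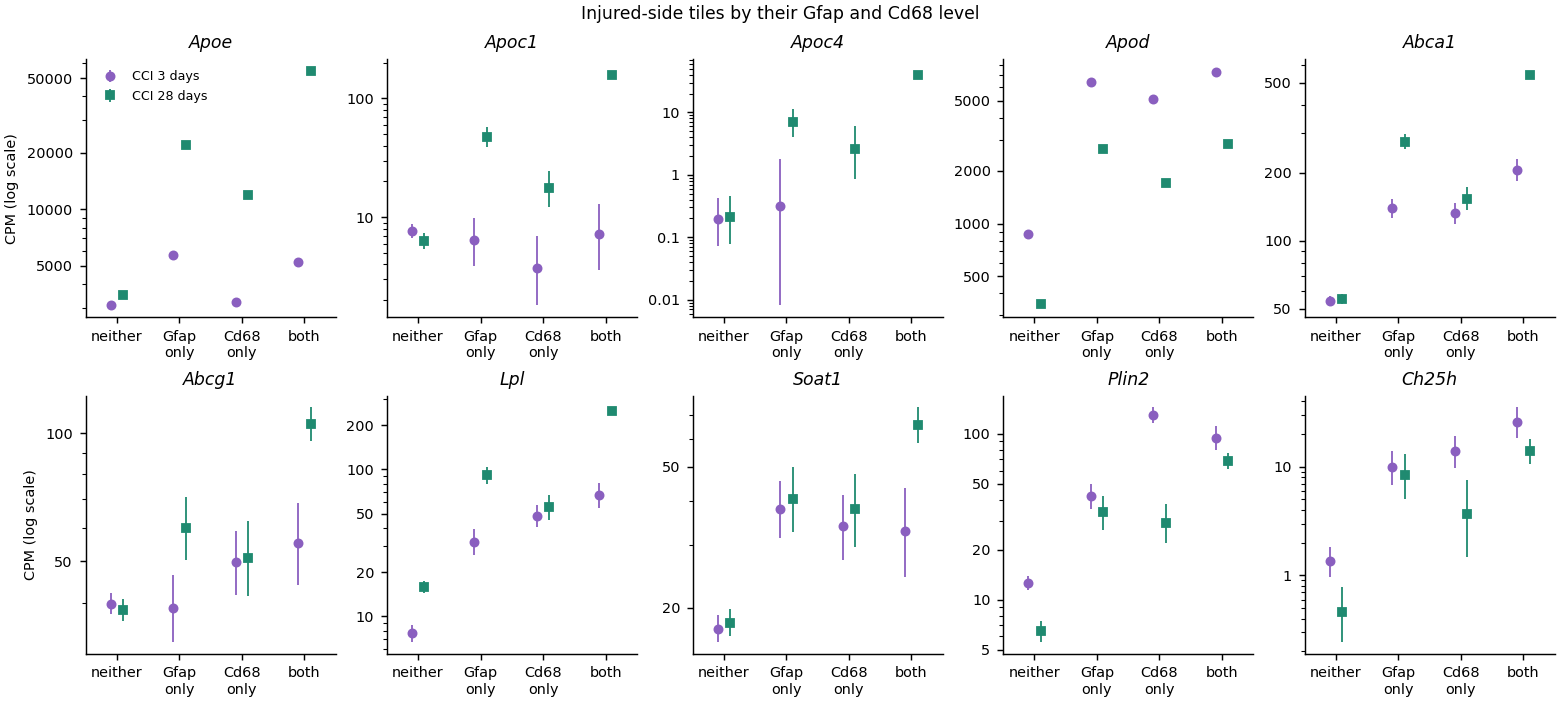
CPM of each member in injured-side tiles high in neither marker, in Gfap only, in Cd68 only or in both, at 3 days (circles) and 28 days (squares), on log scales with exact 95% intervals of counting error. At 28 days all members were highest in the tiles high in both; at 3 days Plin2 was highest in the tiles high in Cd68 only and Apoe in those high in Gfap only. Classes with 0 UMIs have no point.

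Apoe had 3099 CPM in the 3-day tiles high in neither marker, 5691 CPM with Gfap only, 3217 CPM with Cd68 only and 5259 CPM with both. The classes high in Gfap were thus the higher ones, with or without Cd68. As UMIs per bin the 3-day log2 ratio of both over neither turned from 0.76 to -0.12, and that of Abcg1 from 0.48 to -0.41. At 28 days the Apoe levels were 3502, 21996, 11996 and 54532 CPM, 15.6-fold from neither to both, so that tiles with either marker alone were already above every 3-day class. The tiles high in both were 17.1% of injured-side tiles and held 58.9% of the injured-side Apoe UMIs at 28 days, while at 3 days they were 6.66% of tiles with 6.24% of its UMIs.

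Apoc1 had 7.68 CPM with neither and 7.24 CPM with both markers at 3 days (log2 ratio -0.02, -1.11 to 0.78), and 6.31 and 159 CPM at 28 days, 4.65. Apoc4 was found mostly in the tiles high in both at 28 days, which held 182 of its 210 UMIs. Apod differed from these genes, in that its ratios were close in both sections, 3.05 at 3 days (7285 against 877 CPM) and 3.03 at 28 days (2842 against 349 CPM).

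Abca1 went from 54.3 CPM with neither to 205 CPM with both at 3 days and from 55.1 to 543 CPM at 28 days, log2 ratios of 1.92 (1.74 to 2.10) and 3.30. Abcg1 had smaller ratios, 0.48 (0.14 to 0.79) and 1.45, and so did Soat1, 0.93 (0.46 to 1.33) and 1.85. Lpl had the higher level in the tiles high in both, with 7.65 and 66.5 CPM at 3 days and 15.9 and 249 CPM at 28 days. The tiles high in both held 18.0% of its injured-side UMIs at 3 days and 59.6% at 28 days. The Lpl ratio of 3.12 (2.77 to 3.46) at 3 days stood beside a whole-side ratio below 0. Its reference was the 7.65 CPM of injured-side tiles high in neither, while such tiles on the opposite side had 16.3 CPM of Lpl at 3 days. The injured-side tiles high in neither included the hypothalamus, where Lpl was 3.99 CPM, and the tiles high in both did not. Of the tiles high in neither, the hypothalamus was 22.7% on the injured side and 14.2% opposite. The upper cortical layers were 3.17% and 11.6%, and the striatum 1.70% and 5.16%. The part of anatomy in the Lpl ratio was not tested. Ch25h had 1.36 and 25.7 CPM at 3 days and 0.458 and 13.9 CPM at 28 days, from 39 and 63 UMIs where both were high.

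Setting the tiles high in Cd68 only against those high in Gfap only separated the members at 3 days. Plin2 was higher with Cd68 only (130 against 42.1 CPM, a log2 ratio of 1.62, 1.33 to 1.92), and so was Lpl (0.58, 0.20 to 0.97). Apoe was lower there (-0.82, -0.86 to -0.79), as was Apod (-0.33), and the intervals of the others included 0. At 28 days Apoe (-0.87), Apoc1 (-1.42), Abca1 (-0.84), Lpl (-0.72) and Apod (-0.66) were lower with Cd68 only, and Plin2 had -0.20 (-0.73 to 0.31). The depth was 631 UMIs per bin with Cd68 only and 438 with Gfap only. As UMIs per bin these ratios shrank, to -0.35 for Apoe, -0.89 for Apoc1, -0.31 for Abca1, -0.19 for Lpl and -0.13 for Apod. Plin2 turned to 0.33, Abcg1 from -0.23 to 0.29 and Soat1 from -0.09 to 0.43. These 2 classes lay in unlike anatomy at 28 days, where white matter was 2.54% of the tiles high in Cd68 only and 23.4% of those high in Gfap only, the thalamus 16.2% and 3.58%, and the hypothalamus 11.7% and 0.826%. The part of anatomy in these ratios was not tested.

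Tiles high in Gfap on the opposite side gave a further reference. Compared with opposite-side tiles high in Gfap only, the injured-side tiles high in both had less Apoe at 3 days (-0.72, -0.76 to -0.67) and more at 28 days (2.16, 2.13 to 2.20). Apod had 0.48 and -0.39, the latter turning to 0.50 as UMIs per bin. Plin2 had 2.26 (1.66 to 2.96, from 144 and 25 UMIs) and 2.26 (1.34 to 3.56, from 311 and 8 UMIs), Abca1 had 0.50 and 1.59, and Lpl 1.40 (101 and 32 UMIs) and 3.67 (1126 and 11 UMIs). The Plin2 and Lpl values rest on few UMIs in the reference tiles and are descriptions. At 28 days the reference tiles were 58.9% white matter and 12.3% without a region, against 17.0% and 67.7% of the tiles high in both. The marker class differed too, with 402 CPM of Cd68 in the tiles high in both and 0 UMIs in the reference tiles. The reference tiles had 288 UMIs per bin. At that depth a Cd68 UMI would move a tile out of the class, so this 0 follows from the rule. Anatomy, side and marker class cannot be told apart in these ratios.

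Markers of several cell types moved with these tiles. From neither to both, the phagocyte list was 8.16-fold at 3 days and 35.9-fold at 28 days (6 of 6 genes past 2-fold each time), the microglia list 4.68-fold and 13.4-fold (5 of 5), the astrocyte list 2.56-fold and 4.20-fold (3 and 4 of 5), Mbp, Mobp and Mog together 3.01-fold and 3.97-fold (3 of 3), and the neuron list 0.280-fold and 0.279-fold (3 of 3 lower). The ventricular wall list was 3.39-fold and 4.76-fold (4 of 4), the list of meninges and fibroblasts 2.26-fold and 1.98-fold (5 and 3 of 6), the endothelial list 2.10-fold and 2.07-fold (3 and 1 of 4), the mural cell list 2.19-fold and 1.19-fold (3 and 1 of 4), and the choroid plexus list 0.195-fold and 0.0926-fold (5 of 5 lower). At 28 days the phagocyte list summed to 95.4 CPM with neither marker high and 3422 CPM with both, and the microglia list to 368 and 4932 CPM, and none of their genes was at 0. Cd68 and Gfap belong to these lists and set the tiles. How far each cell type accounts for the members' levels was not tested.

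Bins of 16 µm gave a closer look, though a bin can still hold parts of several cells. Each bin was thinned to 300 UMIs, which left out 9853 injured-side and 9532 opposite-side bins at 28 days, 4297 and 8918 at 3 days, and the share of bins with a member UMI was compared between injured-side bins with and without a Gfap UMI, and with and without a Cd68 UMI. With Gfap, 4 of 9 members (Apod, Lpl, Plin2 and Ch25h) had at least 2-fold the share at 3 days, against 5.03% of 12315 genes, and 6 of 9 at 28 days, against 9.70% of 12356 genes. With Cd68, 4 of 9 (Lpl, Soat1, Plin2 and Ch25h) had it at 3 days, against 10.6% of genes, and 8 of 9 at 28 days, against 11.3%. At 3 days 9877 thinned bins had Gfap and 565 had Cd68, and at 28 days 9136 and 818, so the Cd68 shares are the less precise. Apoc4 at 28 days and Ch25h at 3 days would have too few UMIs in the bins without Gfap alone, and their place in these counts is a description.

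**Figure D5:**
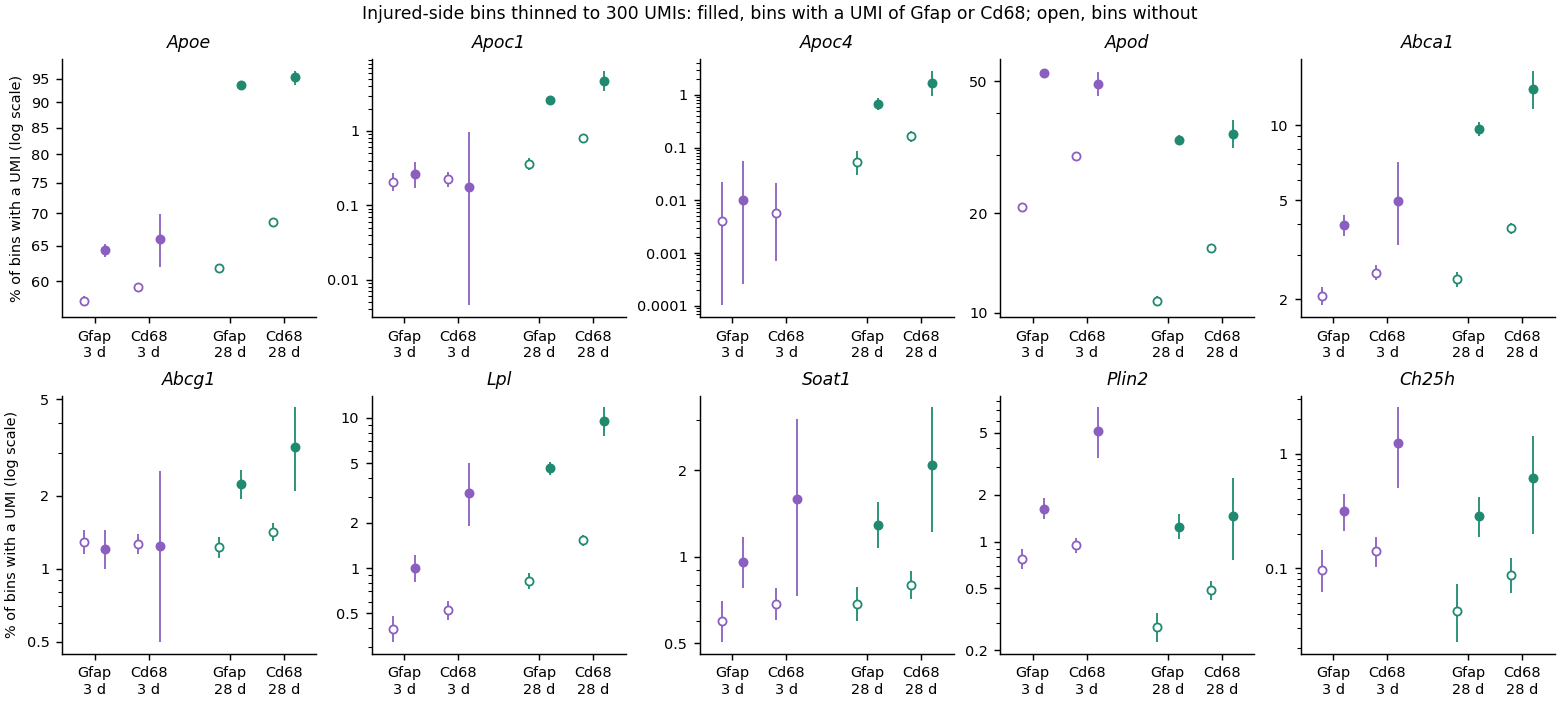
Percent of thinned injured-side bins with a UMI of each member, on a log scale, among bins with (filled) and without (open) a UMI of Gfap or of Cd68, at 3 and 28 days, with exact 95% binomial intervals. At 3 days 5.13% of bins with Cd68 held Plin2 against 0.949% without; at 28 days 93.5% of bins with Gfap held Apoe against 61.9% without. Shares of 0 have no point.

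Apod went with Gfap at 3 days, seen in 52.8% of bins with Gfap and 20.9% without, and Plin2 went with Cd68, in 5.13% (3.46 to 7.29) of bins with Cd68 and 0.949% without. Lpl was in 3.19% and 0.525% of bins with and without Cd68, and in 1.002% and 0.397% of bins with and without Gfap. Abcg1 did not go with Gfap at 3 days, with 1.20% and 1.29%. The Ch25h share with Cd68 rested on 7 bins, and the 2 intervals of Soat1 overlapped. Apoe was in most bins of either kind, 64.4% and 57.4% with and without Gfap at 3 days. With 57.4% and, at 28 days, 61.9% of the bins without Gfap already holding it, Apoe could not reach 2-fold the share, whatever its level.

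At 28 days Abca1 was in 9.62% of bins with Gfap and 2.40% without, and in 13.9% of bins with Cd68 and 3.86% without. Apoc1 was in 2.62% and 0.364% by Gfap and in 4.77% and 0.801% by Cd68. Lpl was in 9.54% of bins with Cd68 and 1.53% without, and Plin2 in 1.47% and 0.484%. The opposite side had lower shares. There, 3.05% of bins with Gfap and 1.58% without held Abca1, and 0.806% and 0.480% held Lpl.

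The genes most like each member were sought by the Pearson correlation of log2(CPM + 10) over tiles of 256 µm, 486 at 3 days and 426 at 28 days. Tiles of a section share its library and their own depth and are not independent, so these are descriptions. Apoe at 28 days was most like the metallothioneins Mt1 (r = 0.92) and Mt2 (0.90) and Itgb5 (0.90), and Abca1 was most like Apoe itself (0.88), Cd9 (0.84) and Itgb5 (0.83). At 3 days Apoe had been most like Appl2 (0.81), Pygb (0.75) and Aldh6a1 (0.75). Its correlation with Cd68 was 0.07 at 3 days and 0.83 at 28 days, and that with Gfap 0.35 and 0.84.

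Apod was most like genes of myelinating cells at 3 days, Tmbim1 (0.89), Cldn11 (0.88), the tight junction protein of myelin, and Trf (0.86), and like Ndrg1 (0.87), Tmbim1 (0.85) and Wnk1 (0.84) at 28 days. Plin2 was most like Lgals3 (0.79), Hmox1 (0.73) and Msn (0.72) at 3 days and like Apoe (0.72), Lyz2 (0.69) and Lgals3 (0.69) at 28 days. Lpl went from Cap1 (0.67), Itgav (0.56) and Tmsb4x (0.55) to Cd52 (0.73), Cd68 (0.72) and Gpnmb (0.71). Ch25h was most like Lgals3 (0.63), Ccn1 (0.63) and Mki67 (0.61), then Cst7 (0.70), Ctsb (0.70) and Gpnmb (0.70).

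Apoc1 at 28 days was most like Apoe (0.76), Lgals3 (0.75) and Gpnmb (0.74), and Apoc4 like Gpnmb (0.79), Ctsb (0.77) and Lcn2 (0.76). For Apoc1 at 3 days the nearest were Sparc (0.56), Igsf1 (0.56) and Paqr6 (0.54), and the highest r for the sparse Apoc4 was 0.17 (Rock1), then Crtap and Cavin2. Abcg1 and Soat1 had no close likeness. Abcg1 had Slain1 (0.52), Nkain1 (0.52) and Gatm (0.51) at 3 days and Ctss (0.52), Ankrd13a (0.52) and Trem2 (0.52) at 28 days. Soat1 had Itgb1 (0.51), Cd63 (0.50) and Tln1 (0.49), then Itgb5 (0.54), Tnfrsf1a (0.54) and Npc2 (0.52), and Abca1 at 3 days had Cd63 (0.74), Cnn3 (0.74) and Tln1 (0.73).

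Other genes of the same pathways were counted from lists, on the CPM scale and against the shares of all genes given above. Apoc2 in both comparisons and sections, Msr1 in both comparisons at 28 days, Fabp4 and Soat2 by side at 28 days, and Gpr183 and Lrp2 between the marker classes at 28 days had under 50 UMIs in the lower area and passed through the higher one, so the counts that hold them are descriptions. The lipid uptake and binding genes were the list with the most members past 2-fold on the injured side, 4 of 6 tested at 3 days and 3 of 7 at 28 days, with median log2 ratios of 1.30 and 0.90. At 3 days these were Msr1, Fabp7, Cd36 and Trem2, and at 28 days Msr1, Trem2 and, named after its values were seen, Fabp4 (2.55, 1.66 to 3.69). In the strip of equal width 3 of 6 tested were past 2-fold at 3 days and 2 of 6 at 28 days. From tiles high in neither marker to tiles high in both, 5 of 6 were higher each time. Msr1, a scavenger receptor, had 4.29 and 4.82 in that comparison, and Trem2, a lipid-sensing receptor of microglia, 2.62 and 4.62. Cd36 (1.56 and 1.37), Fabp5 (1.27 and 1.72) and Fabp7 (2.35 and 1.61) were also higher, and Fabp3 was lower at 3 days (-1.86) with -0.88 at 28 days.

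Among the lipoprotein receptors Lrp2 was past 2-fold on the injured side at each time (1.12 and 1.19). The choroid plexus list was 4.99-fold there at 3 days and 1.72-fold at 28 days, and the ventricular wall list 2.09-fold and 1.79-fold. Their part in the Lrp2 values was not tested. Between the marker classes Lsr had 1.51 at 3 days and 0.68 at 28 days, and Lrp2 had 3.02 at 28 days. Of the other apolipoproteins and plasma lipid transfer genes 1 of 8 was higher each time, Apoc2, an activator of Lpl, with 4.67 (178 and 15 UMIs) and 5.07 (261 and 9 UMIs). Between the marker classes 3 of 7 were higher at 3 days and 4 of 7 at 28 days, with Clu at 1.06 and 2.08, Lcat at 1.28 and 1.65, Pltp at 0.72 and 1.60, and Apoa2 at 0.36 and -2.42.

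None of the 9 further efflux transporters and nuclear receptors was 2-fold higher on the injured side at either time, with median log2 ratios of 0.28 and 0.02. Between the marker classes Nr1h3, which encodes LXR alpha, was higher in both sections (1.70 and 1.74), Mylip, an LXR target, had 0.99 and 2.06, Abcg4, a transporter of neurons and astrocytes, was lower in both (-1.42 and -1.03), and Abca5 had -1.07 and -0.61.

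Lipid droplet and lipase genes were 0 of 11 higher on the injured side at 3 days and 1 of 12 at 28 days, Soat2 (1.67, 0.89 to 2.57), also named after its values were seen. Between the classes 2 of 11 and 5 of 11 were, with Plin3 at 1.63 and 1.80, Plin4 at 1.39 and 1.98, Lipa, the lysosomal acid lipase, at 0.93 and 2.25, Pnpla2 at 0.56 and 1.12, and Plin5 at 0.28 and 1.09. Lysosomal cholesterol and oxysterol genes were 1 of 7 (Gpr183) and 2 of 7 (Gpr183 and Npc2) higher by side, and 4 and 5 of 7 between the classes. Npc2 (1.27 and 2.88) and Npc1 (1.10 and 1.30), which move cholesterol out of lysosomes, were higher in both sections, as were Gpr183 (2.77 and 4.37), the receptor for oxysterols made from the Ch25h product, and Cyp27a1 (1.32 and 2.20). Cyp7b1 had 0.73 and 1.001, and the neuronal cholesterol hydroxylase Cyp46a1 was lower (-1.65 and -1.66).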

How the data were processed

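Per the labels, the authors used Space Ranger 4.0.1 and mm10, and deposited raw UMI counts, not normalized, for every gene in squares of 16 µm. Probe counting reads short targets, so a level reflects the probes and not the whole transcript. Scripts ran in Python 3.11.15 with matplotlib 3.10.9, scipy 1.17.1, pandas 2.3.3 and numpy 2.4.6, and in R 4.3.3, where edgeR 4.0.16 gave the TMM scaling. Of the bins, 1.93% at 3 days and 2.15% at 28 days had under 100 UMIs and were left out. The injured side was given by array column, below 130 at 3 days and below 240 at 28 days, and the median column of Gbx2, a thalamic gene, fell on these columns.

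UMIs were summed over sides, strips, tiles or classes, turned into CPM and set against each other as log2 ratios. A pseudocount of 0.5 UMI was used, and a gene needed 50 UMIs over both areas. Intervals are exact at 95% (conditional binomial for ratios, Poisson for CPM, Clopper-Pearson for shares) and cover counting error. Bins and tiles are not replicates, so no p-values were computed. The steps were tested on simulated data. Tiles went to 1 of 11 regions by marker lists when the score was at least 0.3.

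The text names all 10 members, from each pathway list the 29 genes in all that were 2-fold apart in either comparison with 50 UMIs in each section, and the 3 most similar genes with at least 1000 UMIs. Of the 29 genes, 1 is not reported here. The members, lists and markers were chosen with earlier results of these data known. Marker lists for endothelium, mural cells, oligodendrocyte precursors and T cells were 1.50-, 1.58-, 1.53- and 1.66-fold on the injured side at 3 days and 1.09-, 1.41-, 0.984- and 3.91-fold at 28 days, the T cell genes with too few UMIs to be counted. Alternatives covered scaling, filters, pseudocount, border, percentile, tile size and thinning.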

Additional observations from a re-analysis of the deposited data

Results flagged for a closer look

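Over whole sides Lpl differed in direction between the sections. Its whole-side log2 ratio, injured over opposite, was -0.16 at 3 days and 1.37 at 28 days. In the strip of equal width the 3-day ratio was 0.07 (-0.10 to 0.25), or -0.017 with TMM scaling. With 1 section per time point the difference between the sections was not tested, and at 3 days the Lpl ratio between tiles high in both Gfap and Cd68 and tiles high in neither was above 0 (3.12). Its reference tiles, high in neither, had 7.65 CPM of Lpl on the injured side, against 16.3 CPM in such tiles opposite.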

How the results depend on the processing

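The counts of members past 2-fold stayed within 1.5 times under the alternatives run for each (among UMIs per bin, TMM scaling, no minimum per bin, another pseudocount, border, percentile or tile size), except as follows. In white matter as UMIs per bin, run after seeing the data, 3 members were past 2-fold at 3 days (1 as reported). With a region score of at least 0.5, chosen after seeing the data, 0 members were past 2-fold in white matter at 3 days (1 as reported) and 1 at 28 days (5). For Gfap bins at 3 days, 2 members passed with bins thinned to 200 UMIs and 2 without thinning (4 as reported). The direction turned for Apoe in the 3-day strip with TMM scaling (-0.011), where Lpl (-0.017) and Abcg1 (-0.036), whose intervals include 0 with TMM, also went below 0, and as UMIs per bin between the marker classes at 3 days for Apoe (-0.12) and Abcg1 (-0.41). The causes were not tested. Leaving out tiles led by meninges, choroid plexus or ventricular wall markers and averaging Gfap and Cd68 over neighbouring tiles were also chosen after seeing the data. Among single members' ratios, 17 of 70 over whole sides at each time moved by more than their counting interval, 8 of 70 and 25 of 70 in the strip, and 27 of 110 and 35 of 110 between the marker classes (3 and 28 days). No paired analysis was possible because each time point had 1 section. Intervals cover counting error and leave out the spread between animals, and low counts limit Apoc4, Ch25h and Apoc1 most.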
